A study of Mus musculus with 8 samples.

Results

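SUMO proteases are the enzymes that remove the small protein SUMO from other proteins, and their transcripts were followed here in mouse Th17 cells that differed in whether their master transcription factor, ROR-γt, could be SUMOylated. The 10 genes were taken by name as the mouse enzymes of this kind and their close relatives, Senp1, Senp2, Senp3, Senp5, Senp6, Senp7, Senp8, Uspl1, Desi1 and Desi2. The choice used no measured value, although earlier results of these data were known when it was made. Senp8 is counted among them for its family, since it cuts the related modifier NEDD8 and not SUMO. All 10 were among the 22829 genes listed, and all 10 had a mean of at least 10 normalized counts, so none was left out by the filter on low values. A normalized count is the number of reads on a gene divided by 1 scaling factor for the sample.

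RNA seq had been performed on 8 samples of T cells from ROR-γt-/- mice, which lack the endogenous factor. In 4 samples the cells were reconstituted with WT-ROR-γt, and in the other 4 with K187R-ROR-γt, a form in which arginine replaces the lysine that accepts SUMO. All 8 shared the knockout background, CD4+ selection from spleen with magnetic beads, lentiviral transduction of V5-tagged ROR-γt and culture under Th17 conditions. The comparison asks which transcripts differ when ROR-γt lacks this lysine. The authors do not exclude that acetylation, methylation or another modification also occurs there. No sample of untransduced cells was part of the comparison, the factor came from a lentiviral vector and not from its own locus, and neither the age of the mice nor restimulation before RNA isolation is stated for these samples. The deposited design counts 4 WT and 4 mutant animals, whereas the methods describe transduced cells of knockout mice. The labels number the samples 1 to 4 in each group but tie no sample to an animal or culture. The p-values measure the spread between these samples, and how much of it is spread between animals is not stated.

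The samples held between 52456804 and 74676721 reads on genes. All 6 T cell markers and all 6 Th17 markers examined were detected in every sample. The 5 myeloid markers together were at 20336 to 61225 normalized counts in WT and 35204 to 64257 in K187R samples and Lyz2 alone at 17025 to 57778 over all samples. In no sample did the CD8, B cell, NK cell or red cell markers sum to more than 1141, 1253, 67 and 76. Foxp3, the marker of regulatory T cells, was at 6121 to 17297. The part of other cell types in the values of the SUMO proteases was not tested. The samples were divided by clustering of their whole profiles into 3 sets, a number that was set and not tested. Each set crossed the groups. In the first, K187R replicate 1 joined WT replicates 1 and 3. In the second, K187R replicates 2 and 3 joined WT replicate 2. The last was made up of both samples numbered 4. Xist, the RNA of the inactive X chromosome of female cells, was at 13564 to 17373 normalized counts in the samples of the second set and at 3.56 to 23.7 in the other 5, so it differed between samples of the same group. In bulk RNA, fewer cells of a type and less RNA per cell cannot be told apart.

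SUMO is joined to lysines of target proteins by an enzyme cascade, an E1 that activates it, an E2 that carries it and E3 ligases that help choose the target. SUMO proteases work against this cascade by cutting SUMO off its targets, and some of them also trim the SUMO precursor to its mature end. The SENP enzymes are cysteine proteases that fall into branches by the SUMO form they prefer and by where they reside in the cell, while Uspl1 and the Desi enzymes belong to separate protease families. In T cells SUMOylation acts on transcription factors and signalling proteins, and the balance of ligases and proteases sets how long a modification lasts.

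The promoters of Senp5, Senp6 and Senp7 are shown because these were the 3 genes whose levels separated the samples by replicate number, as described further on. Each sequence covers the 250 bases before the transcription start in RefSeq on GRCm38.p6, read 5′ to 3′ along the gene's strand. Capitals mark matches, on either strand, to the motifs searched.
Senp5 (chr16:32003288-32003537, minus strand): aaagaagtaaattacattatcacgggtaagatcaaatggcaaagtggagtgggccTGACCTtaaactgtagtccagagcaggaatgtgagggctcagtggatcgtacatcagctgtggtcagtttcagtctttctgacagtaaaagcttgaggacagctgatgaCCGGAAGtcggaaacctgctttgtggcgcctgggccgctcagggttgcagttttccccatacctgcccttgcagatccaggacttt
Senp6 (chr9:80066653-80066902, plus strand): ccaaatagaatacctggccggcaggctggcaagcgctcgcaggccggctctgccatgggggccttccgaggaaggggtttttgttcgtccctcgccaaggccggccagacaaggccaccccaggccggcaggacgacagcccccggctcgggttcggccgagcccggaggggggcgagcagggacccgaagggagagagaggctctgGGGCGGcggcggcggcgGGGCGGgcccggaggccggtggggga
Senp7 (chr16:56075154-56075403, plus strand): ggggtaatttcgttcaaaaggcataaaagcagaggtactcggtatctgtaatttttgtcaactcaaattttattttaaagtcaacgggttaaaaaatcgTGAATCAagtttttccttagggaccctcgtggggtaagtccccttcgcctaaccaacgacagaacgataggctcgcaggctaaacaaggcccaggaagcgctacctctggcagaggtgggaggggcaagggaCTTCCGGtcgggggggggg

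The Senp5 window held TGACCT, the reverse complement of AGGTCA, at position -195 from the start, and the ETS sequence CCGGAAG at position -86. AGGTCA is the core that nuclear receptors, the family of ROR-γt, recognize. In the Senp7 window the ETS sequence lay on the opposite strand at position -19 and the AP-1 sequence TGANTCA at position -151. The Senp6 window was the richest in G and C of the 3, at 74% against 49.6% in both others, and held the Sp1 sequence GGGCGG 2 times. None of the matches in these windows overlapped another. RefSeq promoters were matched for 9 of the 10 genes, all but Uspl1.

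Over these 9 promoters GGGCGG was found in 4, against 32.7% of all 32851 promoters of the same length. AGGTCA was found in 2 (Senp1 and Senp5), against 14%. The ETS sequence CCGGAAG was found in 2 (Senp5 and Senp7), against 6.91%. CCAAT was found in 2 (Senp3 and Desi1), against 33.8%. The cAMP response element TGACGTCA (Senp2, 1.55% of all promoters), the E-box CACGTG (Senp8, 6.02%) and TGANTCA (Senp7, 6.75%) were found in 1 each, and TATAAA in none, against 12.4%. All 250 bases of the Senp1 and Desi1 windows lay in annotated exons, as did 65 bases of the Senp8 window and 10 of the Senp3 window. A match describes letters in the window and says nothing of whether a factor binds there. The median promoter had 52.4% G and C.

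No SUMO protease differed between K187R and WT cells beyond the spread between samples. Per gene, limma on log2(normalized count + 1) called 0 of the 10 at an adjusted p below 0.05, and over all 16982 genes tested it called 0 as well (0%). Unadjusted p-values were below 0.05 for 0 of the 10, against 746 genes overall (4.39%). The 2 groups overlapped for every one of the 10, and over all genes tested 417 (2.46%) showed no overlap. At shares this small, 0 of 10 does not set the SUMO proteases apart from other genes. K187R cells were lower for 8 of the 10 genes by their fitted log2 fold change, against 51.6% of all genes, and the median over the 10 was -0.05 against -0.01 over all genes tested. On the recovered reads, edgeR called 0 of the 10 and 0 genes overall (0%), with 0 of the 10 and 729 genes (4.29%) at an unadjusted p below 0.05. DESeq2 called 0 of the 10 and 27 of 13970 genes (0.193%), with 0 of the 10 and 886 of 22817 genes (3.88%) unadjusted.

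**Figure D1:**
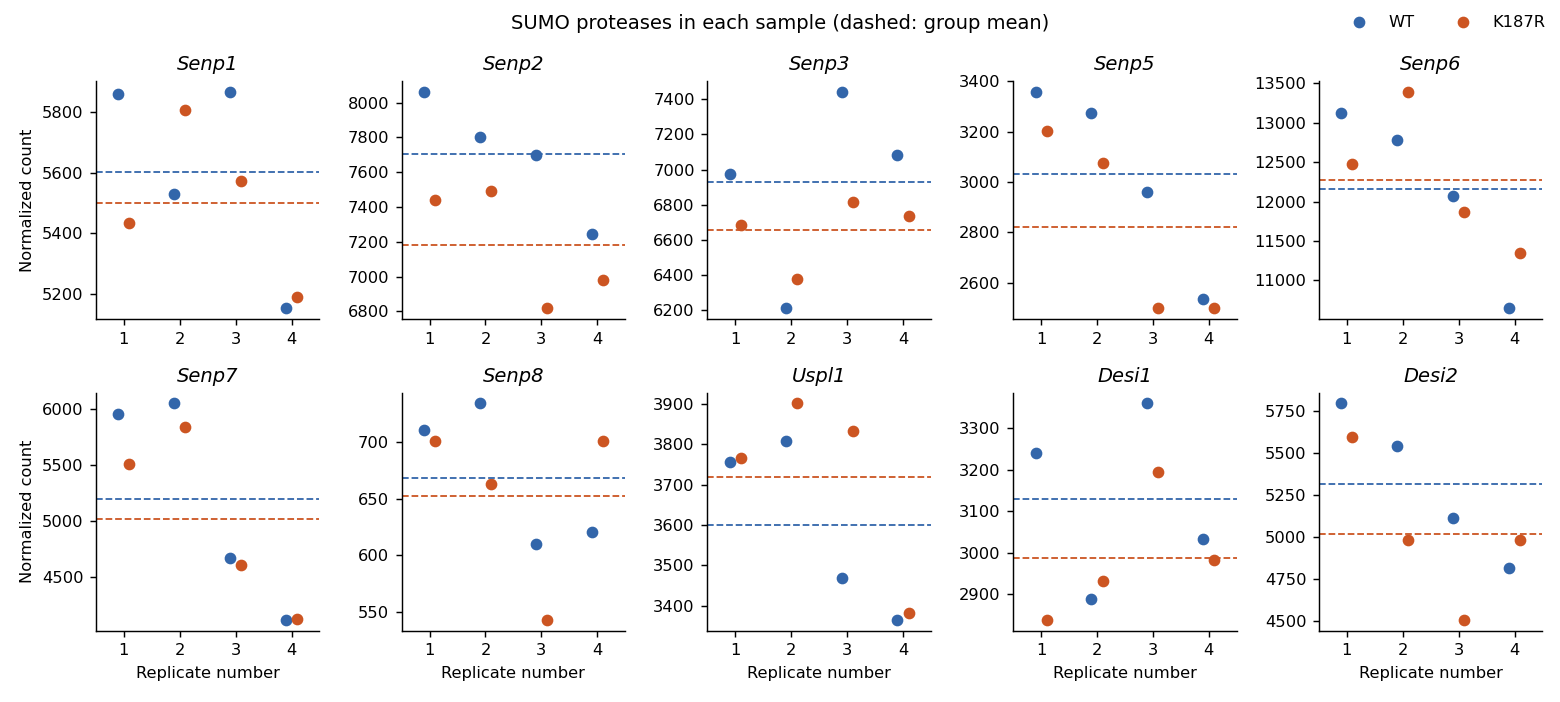
Normalized counts of the 10 SUMO proteases (vertical axes, which do not start at 0) by replicate number (horizontal axes), with 1 point per sample, blue for WT and orange for K187R, and a dashed line at each group's mean of 4 samples. The groups overlap in every panel, and Senp5, Senp6 and Senp7 are higher in the samples numbered 1 and 2 than in those numbered 3 and 4.

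Senp1 and Senp2 form the branch that acts on all SUMO forms and matures the precursors, with Senp1 and Senp2 both found at the nuclear pore. Senp1 (chromosome 15, 98038744 to 98093744, minus strand) was at 5859, 5531, 5866 and 5153 normalized counts in WT replicates 1 to 4 and at 5434, 5805, 5574 and 5189 in K187R replicates 1 to 4. Its lowest value in each group came from replicate 4, and the WT and K187R values interleaved. The means were 5602 ± 338 and 5500 ± 258 (SD, n = 4 each), and the log2 fold change was -0.03 (SE 0.07, 95% confidence interval -0.18 to 0.13, limma adjusted p = 0.968). In the annotation 4.04% of its exonic bases overlap genes on the opposite strand, and the sources do not state whether strand was used in counting.

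Senp2 (chromosome 16, 22009484 to 22049269, plus strand) was at 8062, 7803, 7698 and 7247 normalized counts in WT and at 7442, 7490, 6817 and 6978 in K187R replicates 1 to 4. The upper 3 values were all WT, while the lowest WT sample, replicate 4, fell below 2 of the K187R samples. Its means were 7702 ± 340 and 7182 ± 335 (SD, n = 4 each). At a log2 fold change of -0.10 (SE 0.07, 95% confidence interval -0.25 to 0.05) it had the smallest exact two-sided permutation p of the 10 genes, 0.0857, where the smallest that 4 against 4 samples allow is 0.0286. The limma adjusted p was 0.921.

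Senp3 and Senp5 are the branch that prefers SUMO2 and SUMO3 and is found in the nucleolus, where Senp3 takes part in ribosome assembly. Senp3 (chromosome 11, 69673115 to 69682084, minus strand) was at 6974, 6210, 7442 and 7085 normalized counts in WT and at 6685, 6378, 6817 and 6736 in K187R samples. WT samples held both the lowest and the highest value, and the K187R values lay between them. Means were 6928 ± 519 and 6654 ± 192 (SD, n = 4 each), with a log2 fold change of -0.06 (95% confidence interval -0.22 to 0.11, limma adjusted p = 0.931).

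Senp5 (chromosome 16, 31959672 to 32003287, minus strand) was at 3358, 3275, 2960 and 2535 normalized counts in WT and at 3204, 3077, 2501 and 2499 in K187R samples. Replicates 1 and 2 were high in both groups and replicate 4 was low in both, with K187R replicate 3 also low. The means, 3032 ± 373 and 2820 ± 373 (SD, n = 4 each), gave the most negative log2 fold change of the 10 genes, -0.11, with a 95% confidence interval of -0.38 to 0.17 (limma adjusted p = 0.925).

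Senp6 and Senp7 are the branch that dismantles chains of SUMO2 and SUMO3. Senp6 (chromosome 9, 80066903 to 80144953, plus strand) was at 13124, 12781, 12064 and 10644 normalized counts in WT and at 12481, 13392, 11873 and 11346 in K187R samples. The highest sample was K187R replicate 2 and the lowest WT replicate 4, and the remaining values of the groups were mixed. Means of 12153 ± 1099 and 12273 ± 878 (SD, n = 4 each) differed by a log2 fold change of 0.02 (95% confidence interval -0.18 to 0.21, limma adjusted p = 0.985).

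Senp7 (chromosome 16, 56048338 to 56190012, plus strand) was at 5952, 6046, 4666 and 4118 normalized counts in WT and at 5508, 5840, 4604 and 4131 in K187R samples. In both groups replicates 1 and 2 stood high and replicate 4 lowest, and samples of the same number were close to each other. The group means were 5196 ± 955 and 5021 ± 790 (SD, n = 4 each). Its log2 fold change was -0.04, and its 95% confidence interval of -0.39 to 0.30 was the widest of the 10 (limma adjusted p = 0.975).

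Senp8 is the member that releases NEDD8 from its precursor and its targets. It had the lowest counts of the 10 (chromosome 9, 59734259 to 59750710, minus strand), 710.6, 734.5, 609.8 and 620.4 normalized counts in WT and 701.5, 662.7, 542.5 and 701.5 in K187R samples. The highest sample was WT and the lowest K187R, with the groups overlapping between them. Its 515 reads in K187R replicate 3 were the fewest of any of these genes in a sample, with an exact Poisson 95% interval of 471 to 561 that covers counting error only. The means were 669 ± 63 and 652 ± 75.3 (SD, n = 4 each), and the fitted log2 fold change was -0.04 (95% confidence interval -0.31 to 0.23, limma adjusted p = 0.970).

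Uspl1 is a SUMO protease of Cajal bodies, nuclear structures in which small nuclear RNAs are made and processed. Uspl1 (chromosome 5, 149184350 to 149215434, plus strand) was at 3755, 3809, 3468 and 3365 normalized counts in WT and at 3765, 3901, 3832 and 3382 in K187R samples. The 2 highest samples were K187R and the lowest was WT, but K187R replicate 4 lay below 3 WT samples. At 3599 ± 216 and 3720 ± 232 (SD, n = 4 each) it had the most positive log2 fold change, 0.05 (95% confidence interval -0.12 to 0.22, limma adjusted p = 0.943).

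Desi1 and Desi2 belong to the DeSI family of deSUMOylating isopeptidases, of which Desi1 was found through the repressor Zbtb46. Desi1 (chromosome 15, 81992523 to 82033862, minus strand) was at 3240, 2888, 3360 and 3033 normalized counts in WT and at 2838, 2931, 3196 and 2982 in K187R samples. Replicate 3 was the highest sample in both groups, and replicates 1 and 2 were the lowest in K187R. The means were 3130 ± 211 and 2987 ± 152 (SD, n = 4 each), for which limma fitted a log2 fold change of -0.07 (95% confidence interval -0.24 to 0.10, adjusted p = 0.925). Of its exonic bases, 9.46% overlap Xrcc6 on the opposite strand, so its counts are uncertain if strand was not used.

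Desi2 (chromosome 1, 178187417 to 178257301, plus strand) was at 5794, 5540, 5114 and 4815 normalized counts in WT and at 5593, 4979, 4506 and 4984 in K187R samples. The highest sample was WT replicate 1 and the lowest K187R replicate 3, while WT replicate 4 lay below 3 K187R samples. Means were 5316 ± 436 and 5016 ± 445 (SD, n = 4 each), with a log2 fold change of -0.08 (95% confidence interval -0.28 to 0.11, limma adjusted p = 0.924).

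**Figure D2:**
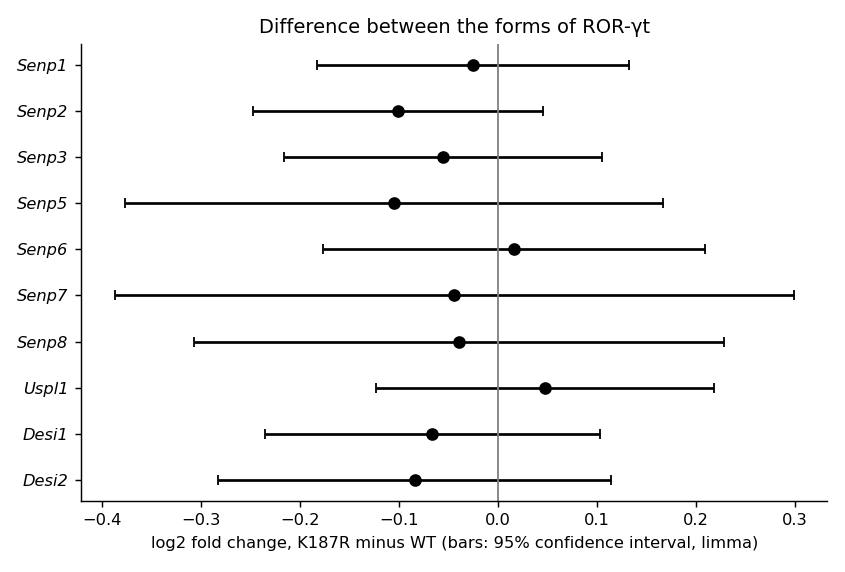
Log2 fold change of each SUMO protease, K187R minus WT (horizontal axis), as fitted by limma over 4 samples per group, with bars for the 95% confidence interval. Every interval includes 0, and together they run from -0.39 to 0.30.

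Over the 10 genes the confidence limits of the ratio of K187R to WT ran from 0.765-fold to 1.23-fold. Within the 3 sets of samples, Senp2 was below 0 in each, with a log2 difference, K187R minus WT, of -0.08, -0.13 and -0.05. Uspl1 was above 0 in each, at 0.06, 0.02 and 0.01. The other 8 genes changed sign between sets. Senp8 moved most, from -0.29 in the set with high Xist to 0.09 and 0.18 in the other 2. With 1 or 2 samples of a group in a set, these are values with no test. Without the 3 samples of high Xist, limma called 0 of the 10 and 0 of all genes tested, with 341 genes at an unadjusted p below 0.05. Senp6, Senp8 and Desi2 were at log2 fold changes of -3.72e-05, 0.12 and 0.01, opposite in sign to their values over all 8 samples. Without the 2 samples numbered 4 it called 0 of the 10 and 4 of all genes tested, with 1960 genes unadjusted, and Senp6 was at -0.01.

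Levels of different genes were compared per length, in RPKM, the reads on a gene scaled by its exonic length and by the reads counted in the sample. Senp3 and Senp6 were the most abundant of the 10 genes in these cells. By exonic length Uspl1 had the lowest mean of those that act on SUMO, close to Senp7, but not by the length of the longest transcript. Senp8, which acts on NEDD8, was the lowest by both lengths. Over the 8 samples Senp3 was at 30.6 ± 1.68 and Senp6 at 28.5 ± 1.90 RPKM (mean ± SD, n = 8), with overlapping ranges and Senp3 the higher in 6 of 8 samples. On the same scale Senp2 followed at 17.6 ± 0.827, Desi1 at 13.8 ± 0.715 and Desi2 at 9.22 ± 0.711. The ranges of these 3 overlapped neither each other nor those of their neighbours in the order.

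The lower part of the order was less distinct. Per length, Senp1 was at 7.64 ± 0.278, Senp5 at 6.59 ± 0.751, Senp7 at 5.98 ± 0.916 and Uspl1 at 5.85 ± 0.335 RPKM. The range of each overlapped that of the next. Even so, Senp1 was above Senp5 and Senp5 above Senp7 in 8 of 8 samples, whereas Senp7 was above Uspl1 in 4 of 8. Senp8, the NEDD8 protease, was below all others at 2.73 ± 0.269. The median of all genes tested was 4.14 RPKM, so Senp8 was the only one of the 10 under it, at the percentile 43.1, while Senp3 stood at 90.0.

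**Figure D3:**
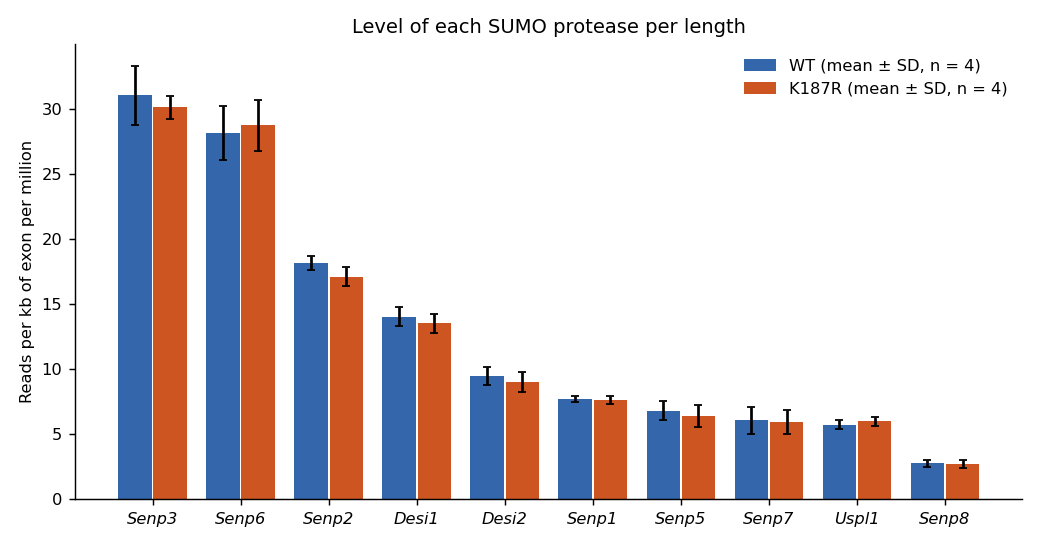
Mean level of each SUMO protease in RPKM, reads scaled by exonic length and sequencing depth (vertical axis, from 0), for WT (blue) and K187R (orange), with bars of 1 SD over 4 samples each. Senp3 and Senp6 stand near 30.6 and 28.5 and Senp8 at 2.73, and the bars of the groups overlap for every gene.

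Summed per length over the 10 genes, the SUMO proteases came to 130 ± 3.83 RPKM in WT (range 126 to 135) and 127 ± 3.78 in K187R samples (range 123 to 131; SD, n = 4 each), ranges that overlap. Senp3 made up 23.8% of the sum on average, Senp6 22.2% and Senp2 13.7%, and the range of each share over samples was narrow, 21.5% to 26.2% for Senp3. The order depends on the length used. With the length of the longest annotated transcript in place of all exonic bases, 5 of the 10 genes kept their place. Senp7, whose annotation holds 13966 exonic bases but a longest transcript of 4825, moved from place 8 to place 4. Uspl1 moved from place 9 to place 7, above Desi2 and Senp5.

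Apart from the groups, the SUMO proteases differed in how much they varied among samples. Senp7 had the largest SD of log2 values over the 8 samples, 0.23, followed by Senp5 at 0.18 and Senp8 at 0.15. The others lay between 0.07 (Senp1) and 0.12 (Desi2). Among all genes tested the median SD was 0.22, and among those with a mean of at least 500 it was 0.15. Senp1 stood at the percentile 4.4 of all genes tested, which include genes of much lower counts. Its place among genes of similar level was not computed.

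**Figure D4:**
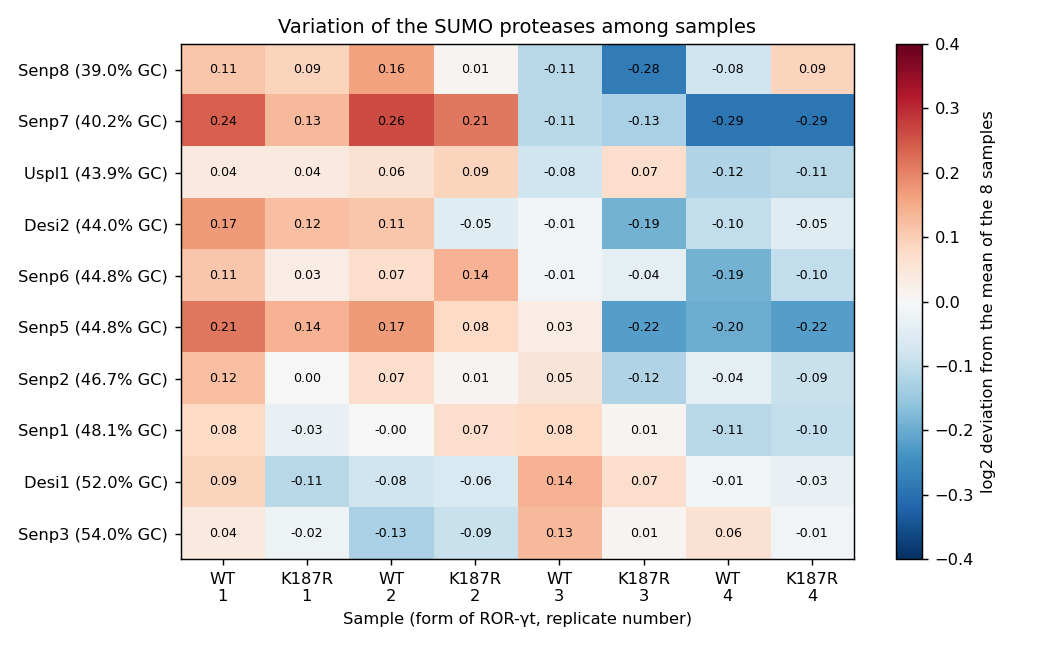
Log2 deviation of each SUMO protease from its mean over the 8 samples (colour, red above and blue below, with the value in each cell), by sample (columns, ordered by replicate number) and by gene (rows, ordered by the GC content of the longest transcript, lowest at the top). Senp7 runs from 0.26 in WT replicate 2 to -0.29 in both samples numbered 4.

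For Senp7 the samples numbered 1 and 2 were at 5508 to 6046 normalized counts, and those numbered 3 and 4 at 4118 to 4666, whatever the form of ROR-γt. Senp5 did likewise, at 3077 to 3358 against 2499 to 2960, as did Senp6, at 12481 to 13392 against 10644 to 12064. The log2 differences of the means were 0.42, 0.30 and 0.17. Thus 3 of the 10 genes were higher in samples 1 and 2 without overlap, against 8.43% of all genes tested, and 0 of the 10 were higher in samples 3 and 4 without overlap, against 8.77%. Senp3 and Desi1 differed in the opposite direction, by -0.10 and -0.08, with overlap. This split was noticed after the values were seen and is given as a description, with no test.

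Over all genes, transcripts of low GC content moved with the same split. The longest Senp7 transcript has 40.2% GC, against 54% for Senp3 and 52% for Desi1, the highest of the 10. Senp5 and Senp6, both at 44.8%, separated the samples without overlap, while Senp8 at 39%, Uspl1 at 43.9% and Desi2 at 44% did not. The log2 differences, samples 1 and 2 minus 3 and 4, were 0.42 for Senp7, 0.30 for Senp5 and 0.19 for Senp8. They were 0.17 for Senp6 and Desi2 and 0.12 for Uspl1. For Senp2 (46.7% GC) and Senp1 (48.1%) they were 0.10 and 0.06, and for Desi1 and Senp3 -0.08 and -0.10. Among the 16958 genes tested that have a GC value, the 20% with the lowest GC content (at most 43.6%) had median log2 deviations of 0.149, 0.132, -0.048 and -0.146 in WT replicates 1 to 4. In K187R replicates 1 to 4 they were at 0.044, 0.089, -0.156 and -0.070. Like Senp7, they were above their mean in samples 1 and 2 and below it in samples 3 and 4 of both groups. The 20% with the highest GC content (at least 55%) had the opposite sign in every sample, from -0.166 in WT replicate 2 to 0.185 in WT replicate 4. The part of GC content in the differences among samples was not tested. Senp8, with the lowest GC content of the 10 at 39%, was an exception in K187R replicate 4, where it stood at 0.09 above its mean.

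**Figure D5:**
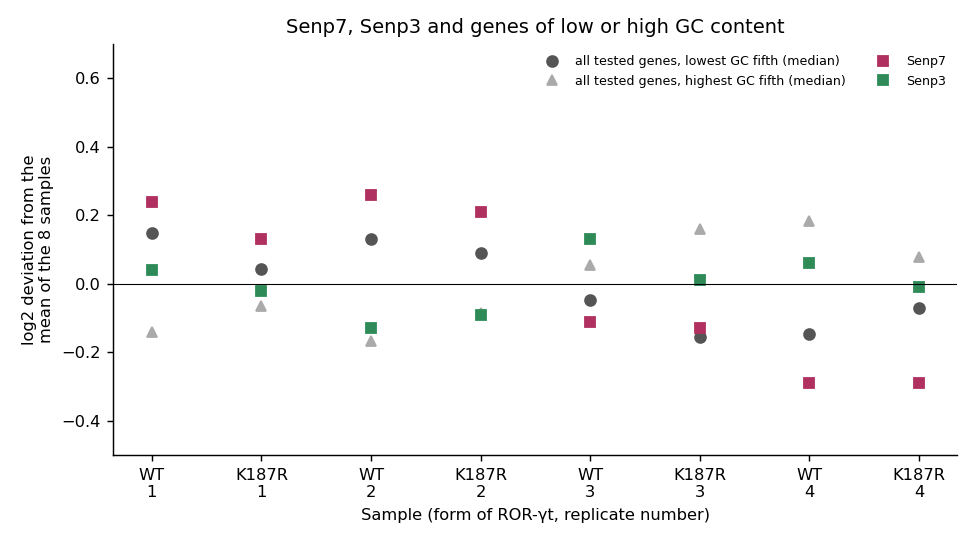
Log2 deviation from the mean of the 8 samples (vertical axis) by sample (horizontal axis, ordered by replicate number), for Senp7 and Senp3 (squares) and for the medians of the 20% of genes with the lowest (circles) and highest (triangles) GC content. Senp7 and the low-GC genes lie above 0 in the samples numbered 1 and 2 and below 0 in those numbered 3 and 4.

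Across the 8 samples, 31 of the 45 pairs of SUMO proteases had a Pearson r of log2 values above 0. The median over all 45 pairs was 0.53. The same share among pairs of all genes tested was not computed, so these values do not set the SUMO proteases apart. The highest r values were those of Senp6 with Senp7 (0.93) and Senp5 with Senp7 (0.92). Senp5 also went with Senp2 (0.89), Desi2 (0.87) and Senp6 (0.84). Senp3 went with Desi1 (0.79) and against Uspl1 (-0.62) and Senp7 (-0.56), and the nucleolar pair Senp3 and Senp5 had an r of -0.30. These are descriptions over 8 samples that share the sample sets and the split by replicate number described above.

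For the 2 genes that varied most, the genes with the most similar profile over the 8 samples were named. For Senp7 these were Vezf1 (r = 0.997), a zinc finger transcription factor, B230219D22Rik (0.997) and Acap2 (0.992), which acts on small GTPases of membrane traffic. For Senp5 they were Diaph2 (0.995), an actin-nucleating formin, Zfp292 (0.991) and Cul5 (0.986), a scaffold of ubiquitin ligases. Such similarity was common, since 619 of 16981 genes had an r above 0.9 with Senp7 and 685 with Senp5.

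Genes that attach SUMO, or act on proteins that carry it, were set beside those that remove it. Of 21 genes for SUMO itself, its E1, E2, E3 ligases and SUMO-targeted ubiquitin ligases, limma called 0 at an adjusted p below 0.05, and 0 had an unadjusted p below 0.05, against 0% and 4.39% of all genes tested. Fitted values were higher in K187R for 7 and lower for 14, against 51.6% lower among all genes, with a median log2 fold change of -0.06 against -0.01. The 4 with the smallest p were Zfp451, an E3 ligase for SUMO2 (-0.20), Nsmce2, the ligase of the Smc5 and Smc6 complex (-0.18), Sumo3, a modifier that Senp3 and Senp5 prefer (0.11), and Pias2, an E3 ligase (-0.12), each as a log2 fold change.

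Senp8 was set beside 14 genes of the NEDD8 pathway, in which NEDD8 is joined to cullins. The same test called 0 of them and 0 had an unadjusted p below 0.05, against 0% and 4.39% of all genes tested. Fitted values were higher in K187R for 2 and lower for 12, against 51.6% lower among all genes, with a median log2 fold change of -0.10 against -0.01. The smallest p-values belonged to Rnf7, a cullin partner (-0.19), the E1 subunits Nae1 (-0.20) and Uba3 (-0.20), and Cops5, which removes NEDD8 from cullins (-0.14). Nae1 was at 4854, 4703, 4027 and 3643 normalized counts in WT and at 3889, 4061, 3333 and 3615 in K187R samples, groups that overlap through the lower 2 WT samples.

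Among 16 genes for known partners and sites of the SUMO proteases, limma called 0 and 1 had an unadjusted p below 0.05, against 4.39% of all genes tested. The count of 1 fell to 0 without WT replicate 1, WT replicate 3, K187R replicate 2 or K187R replicate 3, and without the trend in limma or the samples with high Xist. The gene was Sp100, a SUMOylated protein of PML nuclear bodies. It was at 15496, 15934, 15342 and 16533 normalized counts in WT and at 16811, 19280, 18131 and 17214 in K187R samples, so that every K187R sample lay above every WT sample, as for 2.46% of all genes tested in either direction. Means were 15826 ± 534 and 17859 ± 1097 (SD, n = 4 each), with a log2 fold change of 0.17 (SE 0.07, 95% confidence interval 0.02 to 0.32). The exact permutation p of 0.0286 is the smallest this design allows, and the limma adjusted p over all genes was 0.921. Pml and Daxx of the same bodies were at log2 fold changes of 0.06 and 0.05.

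Of the other partners, Wdr18, in a nucleolar complex with Senp3, was at a log2 fold change of 0.17 and Npm1, a nucleolar target of Senp3, at -0.20. Zbtb46, the repressor that Desi1 acts on, was at 0.69 from low counts, 61.9 to 196.1 normalized counts in WT and 73.8 to 272.8 in K187R samples, with overlap. Over the 16 genes, fitted values were higher in K187R for 9 and lower for 7, against 51.6% lower among all genes, with a median log2 fold change of 0.02.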

How the data were processed

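The authors trimmed reads with Cutadapt, aligned them with HISAT2 to GRCm38 and counted them with featureCounts on GENCODE M15. Whether strand was used is not stated, and the labels and the methods name different library kits. The deposited signal is a normalized count, the reads of a gene divided by 1 DESeq2 size factor per sample. All values (100%) were whole reads within 0.001, so reads could be recovered, and on these edgeR's quasi-likelihood test called 0 genes and DESeq2 27. No column of sample values (0) was left unused.

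Because the deposited signal is not a raw count, the main test was limma with a trend on log2(normalized count + 1), for 16982 genes with a mean of at least 10, with Benjamini-Hochberg adjustment over all of them and a threshold of 0.05. Single genes were also tested by exact permutation (70 regroupings). At the depths given, 3 reads, taken as the smallest detectable count, correspond to 2.54 to 3.57 normalized counts. This limit covers counting error alone. Coordinates, exonic lengths and GC content are from GRCm38 with GENCODE M21, which holds 22784 of the listed identifiers and lacks 45. Promoter motifs were searched on both strands, and positions count back from the base before the start (-1) to the first base of a match. The window printed is the most upstream RefSeq start near a principal transcript.

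Samples and groups were taken from the labels. The members, taken by name, and the gene lists were chosen with earlier results of these data known. All 10 members are named, up to 4 genes of each other list by smallest p, and 3 genes most like each of the 2 most variable members. Pml and Daxx were named outside this rule, as genes of the same bodies as Sp100. Alternatives covered the pseudocount, the filter, scaling, the model, the replicate block, each sample left out, edgeR and DESeq2. Scripts were tested on simulated data. The tests ran in R 4.3.3 with DESeq2 1.42.0, edgeR 4.0.16 and limma 3.58.1. Some results are not reported.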

Additional observations from a re-analysis of the deposited data

How the results depend on the processing

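None of the 10 SUMO proteases passed the threshold under any of the 22 alternatives tried, and their median log2 fold change stayed between -0.08 and -0.03. The number of all genes called was 0 as reported and moved to 3 with sample weights, 1 with the sample set as a factor, 27 with DESeq2 and 4 without the samples numbered 4, and from 0 to 4 with each sample left out, 4 without WT replicate 4. Leaving out the samples numbered 4 or those with high Xist was chosen after seeing the data. No gene of the 3 other lists was called under any alternative, and at most 5 SUMO conjugation genes and 6 NEDD8 pathway genes (both without WT replicate 4, with 2181 of all genes) and 3 partners (without the samples numbered 4, with 1960 of all genes) had an unadjusted p below 0.05.

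The sign of the log2 fold change turned for 5 of the 10, and the cause was not tested. With each sample left out it ran from -0.0652 to 0.0020 for Senp1, which turned without K187R replicate 4, from -0.0462 to 0.0545 for Senp6, from -0.15 to 0.0451 for Senp7 and from -0.0823 to 0.0462 for Senp8. Senp6 turned without WT replicate 4 (-0.0462) or K187R replicate 2 (-0.0269), Senp7 without WT replicate 1 (0.0275), WT replicate 2 (0.0350) or K187R replicate 4 (0.0451), and Senp8 without WT replicate 2 (0.0070) or K187R replicate 3 (0.0462). Senp6 was at -0.0141 with sample weights, at -0.0094 without the samples numbered 4 and at -3.72e-05 without those with high Xist, where Senp8 was at 0.12 and Desi2 at 0.0149. Senp2, Senp3, Senp5, Uspl1 and Desi1 kept their sign. In the order of levels per length, 5 genes kept their place with the longest transcript and all 10 with size factors.

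Neither the labels nor the methods pair the samples by replicate number, and the main test treated them as unpaired. The deviations of same-numbered samples correlated at 0.59, 0.66, -0.09 and 0.63 for numbers 1 to 4. Of the 8 samples, 6 correlated best with their own number, so variation was shared by number except for number 3. K187R lay above the same-numbered WT sample in 0 of 4 numbers for Senp2 and Senp5. This count was 4 of 4 for Uspl1 and 1 or 2 for the other genes, with no test. With the replicate block limma called 0 genes and 0 of the 10 SUMO proteases. It put 2046 genes at an unadjusted p below 0.05, against 746 without the block. At 4 samples a group, differences inside the confidence intervals cannot be resolved.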
